A study of Mus musculus with 29 samples.

Results

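The miR-17-92 cluster is a run of microRNA (miRNA) hairpins that are cut from a single primary transcript. It was followed here through its 9 mature arms, taken by name from the deposited count table: mmu-miR-17-5p, mmu-miR-17-3p, mmu-miR-18a-5p, mmu-miR-18a-3p, mmu-miR-19a-3p, mmu-miR-19b-3p, mmu-miR-20a-5p, mmu-miR-92a-1-5p and mmu-miR-92a-3p, the mouse prefix mmu being left out below. They are 9 of the 1183 miRNAs of the table and 9 of the 695 that had a value in every library. Small RNA was sequenced from 29 libraries of C57BL/6 mice, 15 from the tibialis anterior, a muscle of the lower leg, and 14 from serum. Old mice were 24 months old and not subjected to disuse, disuse mice were 6 months old with a disuse-induced atrophy, and young mice were 6 months old controls. Each of old, disuse and young muscle and of disuse and young serum had 5 libraries, and old serum had 4. The means of imposing disuse and its length are not stated in the sources used here. Whether numbered samples of a group are separate animals, and whether an animal gave both muscle and serum, is likewise unstated, so the p-values cover only the variation among these libraries, part of which may be technical.

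A miRNA hairpin yields a 5p and a 3p arm, of which the one that is loaded into an Argonaute protein, the guide, usually accumulates and the other, the passenger, is mostly degraded. The guide pairs with messenger RNAs through its seed, bases 2 to 8 from the 5′ end, and represses them, so arms with a shared seed share many targets. The primary transcript of the cluster, known in mouse and human as the host gene of miR-17, is induced by MYC and E2F factors and is known for promoting proliferation and survival in lymphocytes and tumours. Among its targets is the messenger RNA of the pro-apoptotic protein BIM. miR-92a is also studied in endothelium, where it restrains vessel growth, and is plentiful in red blood cells.

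In the mouse build GRCm38.p6 (RefSeq) the 6 hairpins lay within 836 bases of the plus strand at chr14:115043671-115044506. All 6 were in exon 2, the last of the 2 exons, of the long noncoding RNA gene Mir17hg (GENCODE M21, chr14:115042879-115046727). The mature sequences below are RefSeq's, 5′ to 3′, with the seed in capitals; they are shown because seeds and near-identical arms decide how the counts can be read.
miR-17-5p: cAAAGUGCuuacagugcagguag
miR-20a-5p: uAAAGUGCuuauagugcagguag
miR-18a-5p: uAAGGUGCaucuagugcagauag
miR-19a-3p: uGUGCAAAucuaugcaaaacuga
miR-19b-3p: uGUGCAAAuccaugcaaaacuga
miR-92a-3p: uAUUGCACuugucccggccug
miR-17-3p: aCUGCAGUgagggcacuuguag
miR-18a-3p: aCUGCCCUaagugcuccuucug
miR-92a-1-5p: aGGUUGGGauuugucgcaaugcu

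The first 6 of these are the arms usually taken as guides and the last 3 are their hairpins' other arms. miR-17-5p and miR-20a-5p share the seed AAAGUGC, also carried by miR-106a-5p, miR-20b-5p, miR-106b-5p and miR-93-5p of the paralogous clusters. miR-19a-3p and miR-19b-3p share GUGCAAA and differ by the single substitution U11C (miR-19a-3p first, positions from the 5′ end). miR-17-5p differs from miR-20a-5p at C1U and C12U and from miR-106a-5p at U10A. The seed of miR-92a-3p, AUUGCAC, is also that of miR-25-3p, miR-363-3p and miR-32-5p.

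The mature sequences of 2 of the 9 members are made from 2 loci. miR-19b-3p and miR-92a-3p are encoded here and, with identical letters, in the miR-106a-363 cluster on the X chromosome (Mir19b-2 at chrX:52741983-52742066 and Mir92-2 at chrX:52741838-52741928, minus strand), so their counts cannot be assigned to a locus. Of the miR-92a pair, miR-92a-1-5p is specific to the chromosome 14 hairpin, which is printed with its 5p and 3p arms in capitals because the muscle differences that passed concern these arms.
Mir92-1: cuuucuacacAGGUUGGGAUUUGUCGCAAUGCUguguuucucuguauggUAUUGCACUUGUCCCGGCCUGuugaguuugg

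Library totals were 45176 to 309133 counts in serum (median 170854) and 254624 to 5943445 in muscle (median 2169800). In muscle the group medians were 2825032 for old, 2298437 for disuse and 535754 for young, so the young libraries were shallower. A count of 0 allows up to 3 counts of a library, which is 9.70 to 66.4 CPM (counts per 1000000 of a library's counts) in serum libraries and 0.505 to 11.8 CPM in muscle libraries. These limits and the counting intervals below cover counting error only. The source labels held: 7 miRNAs of striated muscle summed to 650 to 4751 CPM in serum and 377159 to 524060 CPM in muscle, and miR-122-5p of hepatocytes was at 202 to 2838 CPM in serum and 0 to 5.98 CPM in muscle. CPM below are scaled by TMM factors within each source.

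miR-92a-3p made up nearly all of the cluster's counts in every library. It took 97.9% to 99.2% of the 9 members' counts in the serum libraries and 99.3% to 99.7% in the muscle libraries. The other 8 together held 1.38% ± 0.443 in serum (SD, n = 14) and 0.558% ± 0.119 in muscle (SD, n = 15). By mean CPM miR-92a-3p ranked 9 of 695 miRNAs in serum and 10 in muscle. The member next in rank was miR-19b-3p in serum, at 118, and miR-17-5p in muscle, and miR-18a-5p was last of the 9 in both sources, at 323 and 414.

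Abundance as counted therefore did not follow position on the transcript, which carries the 6 hairpins a single time each. The counts of miR-92a-3p and miR-19b-3p may hold reads from their X-linked copies. The output of this transcript by position can therefore not be read from them. Within the miR-18a hairpin abundance also did not follow the usual guide and passenger roles. In muscle miR-18a-3p had 271, 235 and 71 counts in the old, disuse and young libraries together, against 27, 14 and 7 counts of miR-18a-5p. The 2 arms of miR-17 were close in muscle, with 291 counts of miR-17-3p and 388 of miR-17-5p over the old libraries, and 226 and 269 over the disuse libraries. Levels of different miRNAs in one library also depend on ligation and amplification, which differ between sequences, so these are orders of counts.

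**Figure D1:**
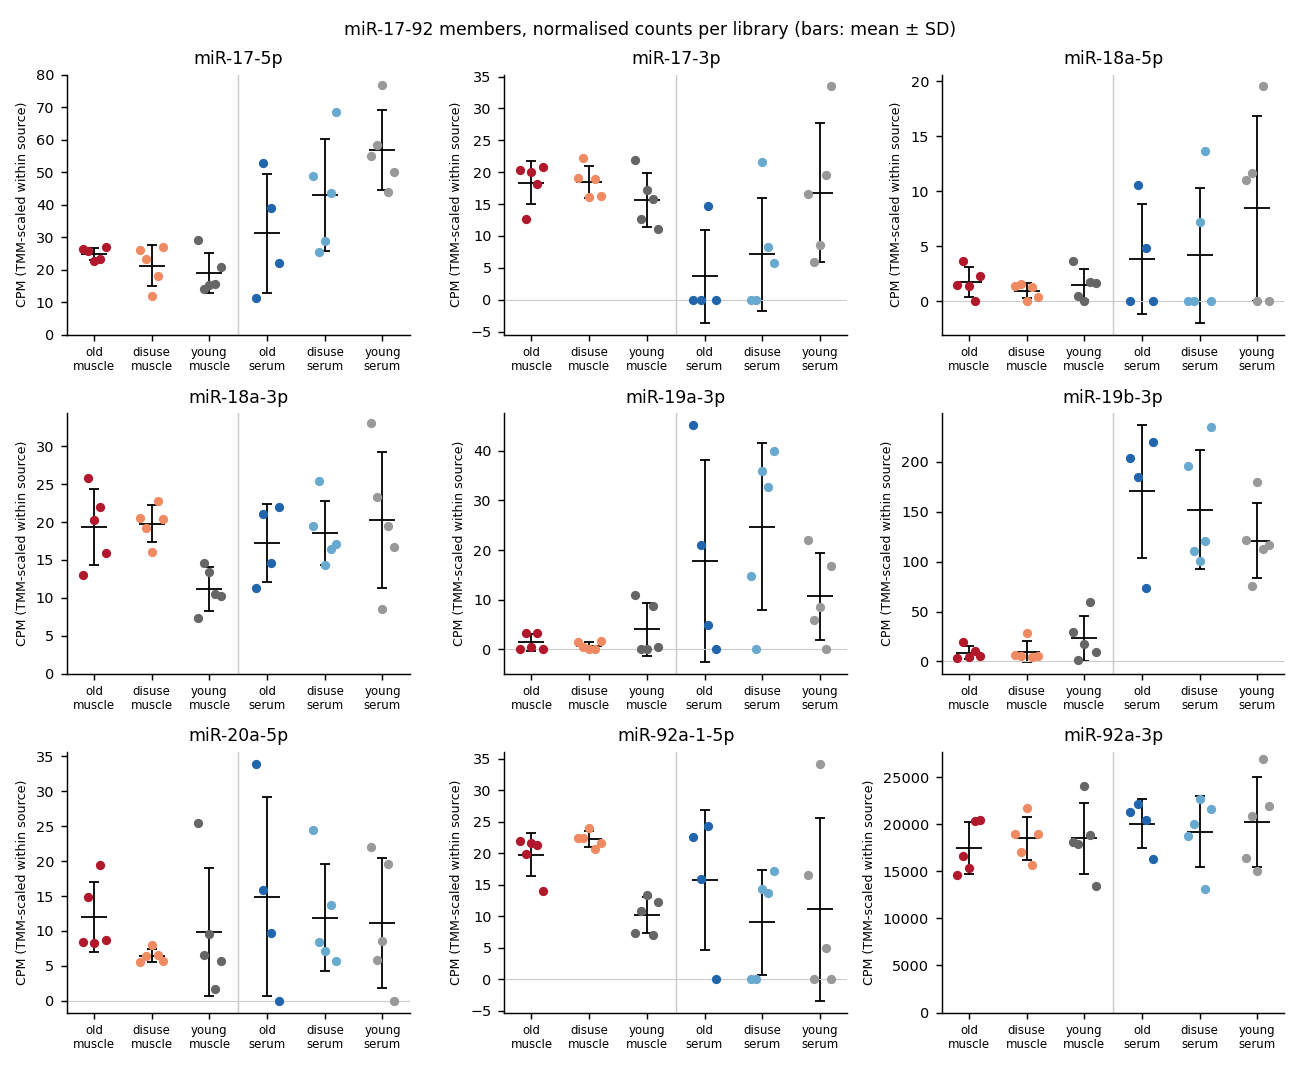
Normalised counts (CPM, TMM-scaled within each source, linear axis from about 0) of the 9 members in each library of the 6 groups, with the mean and SD as bars. miR-92a-1-5p was between 13.9 and 24.1 CPM in the 10 old and disuse muscle libraries and between 6.996 and 13.4 CPM in the 5 young ones, and miR-19b-3p was higher in serum than in muscle.

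Old against young muscle asks what differs between 24 and 6 months of age. miR-92a-1-5p, the 5p arm of the cluster's last hairpin, rose in old muscle. It was at 22.01, 19.9, 21.7, 21.4 and 13.9 CPM in old muscle, against 7.29, 10.8, 13.4, 6.996 and 12.2 CPM in young muscle. The lowest old library lay just above the highest young one, so the groups did not overlap. The share of all tested miRNAs whose groups did not overlap was not counted, so here and below non-overlap adds nothing to the test. Its log2 fold change was 0.88 ± 0.24 (SE; a 1.84-fold difference), with adjusted p = 0.0263 in edgeR's quasi-likelihood test with Benjamini-Hochberg adjustment over the 341 miRNAs tested.

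Of the 7 members with enough counts to be tested in muscle, 1 rose, 0 fell and 6 did not pass in old against young muscle; miR-18a-5p and miR-19a-3p were too scarce to test. Of all tested miRNAs 5.87% passed (1.17% higher and 4.69% lower, 4 and 16 miRNAs; with upper-quartile factors 2 were higher and 34 lower, and the median over all miRNAs was -0.21). Unadjusted p-values were under 0.05 for 2 of the 7 members and 73 of the 341 miRNAs. The members' median log2 fold change was 0.47, against -0.01 over all miRNAs, with 5 of 7 positive.

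The call for miR-92a-1-5p rested on old muscle 1, the deepest library, without which the log2 fold change was 0.83 and the adjusted p 0.0607. It was also lost with upper-quartile factors (0.68, adjusted p = 0.0901), without the filter on low counts (0.97, 0.0542), in limma-voom (0.82, 0.0623), with only the old and young libraries fitted (0.93, 0.0723) and with every library thinned to 254624 counts (2.41, 0.448). It was kept in DESeq2 (0.87, adjusted p = 0.0429). The counts behind it were 33 to 122 per library in old muscle and 2 to 30 in young muscle. Depth differs between young and old muscle, and its part in this difference was not tested.

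miR-92a-3p, the other arm of this hairpin, was at 14583, 16637, 15371, 20315 and 20394 CPM in old muscle, against 18132, 17931, 24100, 18894 and 13459 CPM in young muscle. These values overlap throughout. The log2 fold change was -0.08 ± 0.16, with a 95% interval of -0.43 to 0.27 (adjusted p = 0.794).

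The other members between old and young muscle did not pass. miR-18a-3p, the other arm of miR-18a, averaged 19.4 ± 5.04 CPM in old muscle and 11.2 ± 2.86 CPM in young muscle (SD, n = 5 each; log2 fold change 0.70 ± 0.26, adjusted p = 0.108). Of the AAAGUGC pair, miR-17-5p averaged 25.01 ± 1.87 CPM in old muscle and 19.01 ± 6.22 CPM in young muscle (0.47 ± 0.24, adjusted p = 0.240). miR-20a-5p averaged 12.0 ± 5.02 CPM in old muscle and 9.82 ± 9.20 CPM in young muscle (0.61 ± 0.41, adjusted p = 0.422). miR-17-3p averaged 18.4 ± 3.35 CPM in old muscle and 15.7 ± 4.23 CPM in young muscle (0.38 ± 0.25, adjusted p = 0.405). The 95% intervals of these 3 reach from below 0 to at least 0.92.

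Disuse against young muscle asks what differs at the same age when atrophy is induced by disuse. miR-92a-1-5p was at 22.4, 22.5, 24.1, 20.6 and 21.6 CPM in disuse muscle, against the 5 young values given above. The 5 disuse libraries lay close together and all above the young ones. The log2 fold change was 1.03 ± 0.25 (a 2.04-fold difference) with adjusted p = 0.0652, so it did not pass in edgeR's test, although it was larger than the change in old muscle. Both comparisons use the same 5 young libraries. With the 488 incomplete miRNAs added, their missing cell taken as the first and set to 0, the adjusted p was 0.0481, and in the other alternatives run it was 0.0551 to 0.781.

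Of 7 members tested, 0 passed between disuse and young muscle, where 0.293% of all tested miRNAs did; 3 members and 29 of the 341 miRNAs had an unadjusted p under 0.05, and DESeq2 and limma-voom also called 0 members. miR-18a-3p was at 20.5, 19.3, 16.04, 22.8 and 20.4 CPM in disuse muscle, against 7.29, 14.5, 13.4, 10.49 and 10.2 CPM in young muscle. The log2 fold change was 0.79 ± 0.26 (adjusted p = 0.248). miR-92a-3p had a log2 fold change of 0.00 ± 0.16, with a 95% interval of -0.35 to 0.35. The members' median was 0.33, against 0.00 over all miRNAs.

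**Figure D2:**
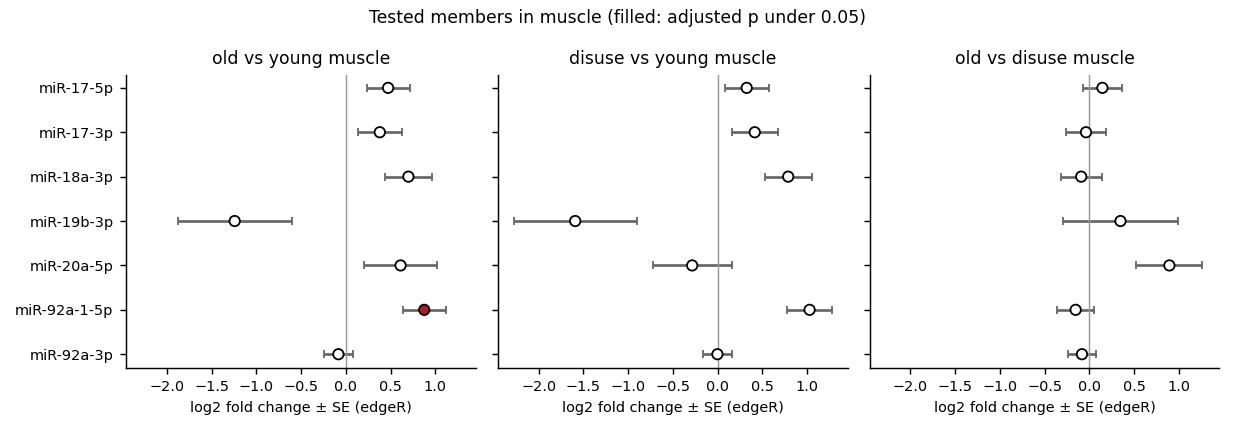
Log2 fold changes with standard errors (edgeR) of the 7 tested members in the 3 muscle comparisons; a filled point has an adjusted p under 0.05. miR-92a-1-5p stands at 0.88 in old and 1.03 in disuse muscle against young muscle, while miR-92a-3p is at -0.08 and 0.00.

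Because both arms of a library share its depth and scaling, the ratio of miR-92a-1-5p to miR-92a-3p needs no normalization between libraries. On the log2 scale (counts plus 0.5) it was -9.71, -9.56, -9.70, -9.56 and -9.77 in disuse muscle, against -10.96, -10.67, -10.71, -11.23 and -10.08 in young muscle. All 5 disuse values were above all 5 young values. The difference in mean was 1.07, and the exact two-sided permutation p was 0.00794, the smallest that 5 against 5 libraries can give, or 0.0463 adjusted over 35 tests of ratios between members. In old muscle the ratio was -9.37, -9.69, -9.46, -9.87 and -10.50, a difference from young muscle of 0.95 (exact permutation p = 0.0159, adjusted p = 0.0617), with old muscle 5 inside the young range. The miR-92a-3p count may hold reads from the X-linked copy, while the 5p count comes from Mir92-1 alone.

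With a pseudocount of 1 the difference between disuse and young muscle was 0.99 and its adjusted p 0.0556. With a disuse or young library left out, the difference was 0.95 to 1.23 and did not pass, with an adjusted p of 0.0556 to 0.0794. The smallest possible p stays at 0.00794 for 4 against 5 libraries. The adjusted p depends on how many of the ratio tests share that smallest p.

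**Figure D3:**
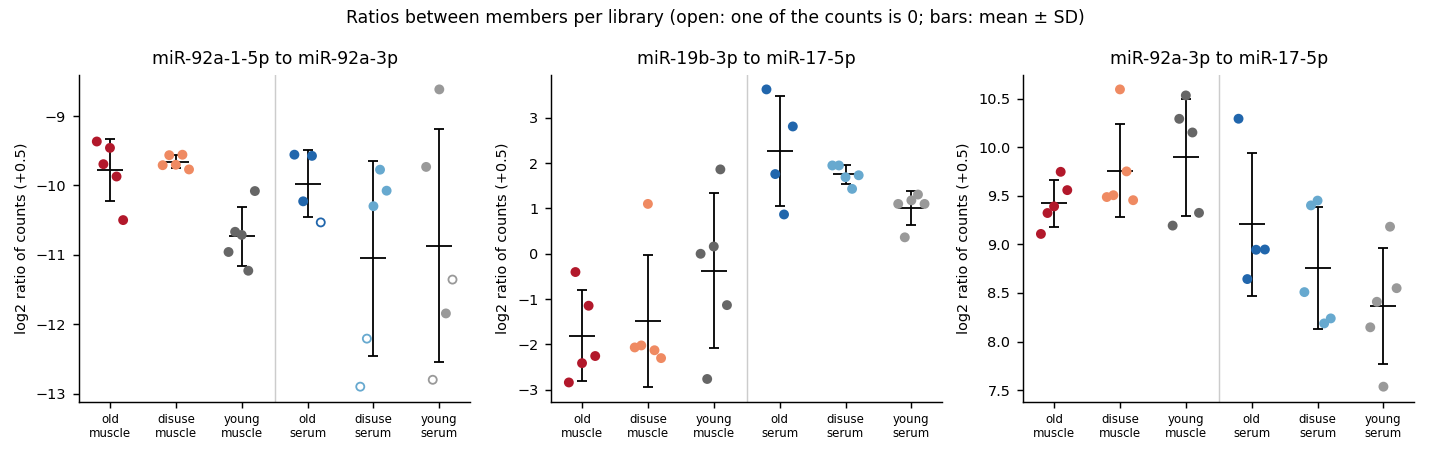
Log2 ratios of counts (plus 0.5) per library in the 6 groups, for miR-92a-1-5p to miR-92a-3p, miR-19b-3p to miR-17-5p and miR-92a-3p to miR-17-5p, with the mean and SD as bars; open points have a count of 0 in one of the arms. The arm ratio of miR-92a was -9.77 to -9.56 in disuse muscle and -11.23 to -10.08 in young muscle, and the serum values of miR-19b-3p to miR-17-5p lie above most muscle values.

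miR-19b-3p, one of the pair of arms with the seed GUGCAAA, did not pass in muscle. It was at 3.61, 19.4, 4.13, 10.4 and 5.51 CPM in old muscle and 6.07, 5.67, 28.1, 3.95 and 5.29 CPM in disuse muscle, against 29.2, 1.88, 17.2, 59.5 and 9.38 CPM in young muscle. The young libraries spread over both other groups. The log2 fold change was -1.24 ± 0.64 for old against young muscle (adjusted p = 0.242) and -1.59 ± 0.69 for disuse against young muscle (adjusted p = 0.456). Without young muscle 4 these were -0.21 and -0.64, and with any 1 library left out they ranged from -1.82 to -0.21 and from -2.07 to -0.64.

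The count of miR-19b-3p hardly moved with library size in muscle. Over the 15 libraries its slope of log2 counts on log2 library total was 0.20, where counts proportional to the total give a slope near that of miR-92a-3p, at 0.87, or of miR-17-5p, at 1.06. Its counts ranged from 4 to 43 while totals ranged 23.3-fold. miR-19a-3p, which differs from it by 1 base, had a slope of -0.08 on 0 to 7 counts. The highest CPM values of miR-19b-3p, 59.5 in young muscle 4, 29.2 in young muscle 1 and 28.1 in disuse muscle 3, were in 3 of the 4 shallowest muscle libraries. Depth differs between young and the other muscle groups, and its part in the miR-19b-3p values was not tested.

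**Figure D4:**
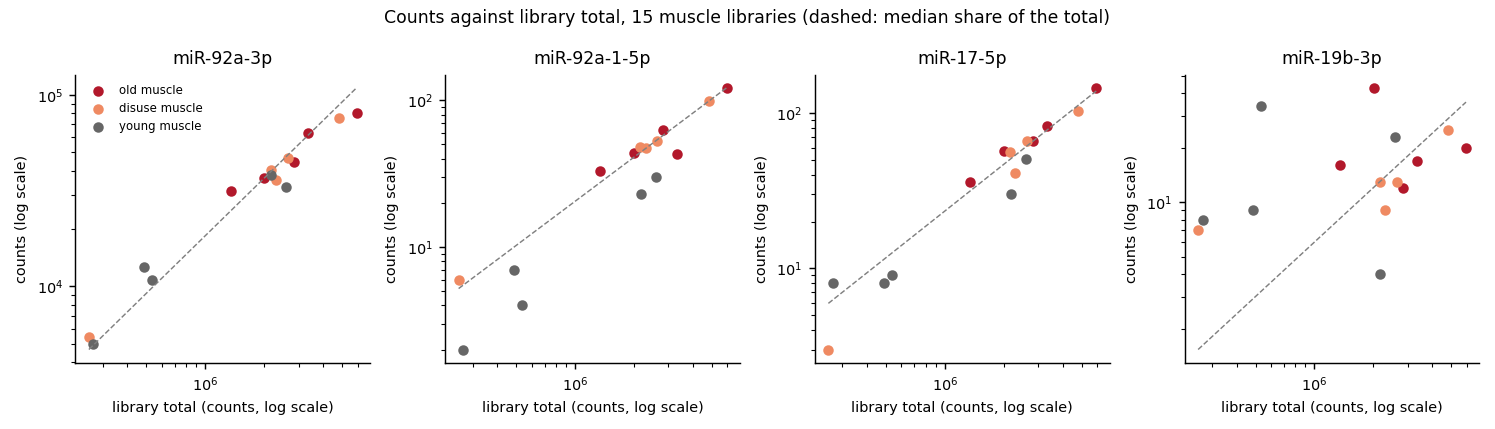
Counts of 4 members against the library total in the 15 muscle libraries, both axes logarithmic; the dashed line is the median share of the total over these libraries. The counts of miR-92a-3p, miR-92a-1-5p and miR-17-5p follow the total, with young libraries below the line for miR-92a-1-5p, and those of miR-19b-3p stay between 4 and 43.

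Between old and disuse muscle, which differ in age as well as in disuse, so that these cannot be told apart, 0 of 7 members passed in edgeR's test, where 3.52% of all tested miRNAs did (2.93% lower); 1 member had an unadjusted p under 0.05, and DESeq2 and limma-voom also called 0. That member was miR-20a-5p, at 8.48, 14.9, 8.26, 19.4 and 8.75 CPM in old muscle, against 5.60, 6.35, 8.02, 6.59 and 5.70 CPM in disuse muscle. The lowest old and the highest disuse library were close, at 8.26 and 8.02 CPM, and the log2 fold change was 0.90 ± 0.37 (adjusted p = 0.212). miR-92a-1-5p was at -0.15 ± 0.21 and miR-17-5p at 0.15 ± 0.22 in this comparison.

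A mean profile in muscle was formed from the 5 members that come from the chromosome 14 locus alone and passed the count filter (miR-17-5p, miR-17-3p, miR-18a-3p, miR-20a-5p and miR-92a-1-5p). Between pairs of these 5, Pearson's r of log2 CPM over the 15 muscle libraries was 0.03 to 0.40, except 0.80 for miR-18a-3p and miR-92a-1-5p. Their mean centred log2 CPM over the 15 muscle libraries was most like those of miR-874-3p, miR-31-5p, miR-702-3p, miR-23b-3p and miR-199b-5p among 327 other miRNAs. Pearson's r was 0.75, 0.69, 0.66, 0.66 and 0.64 in that order, and Spearman's rho 0.71, 0.46, 0.58, 0.53 and 0.13. The libraries share 3 groups and differ in depth, so these are descriptions with no p-value. In serum no locus-specific member passed the filter.

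The paralogous clusters miR-106a-363 and miR-106b-25, the other arms of the cluster's hairpins and miR-32-5p form a list of 20 related miRNAs, of which 15 had complete values and 7 were tested in muscle. In old against young muscle, in disuse against young muscle and in old against disuse muscle 0 of the 7 passed. miR-93-5p, with the seed of miR-17-5p, was at 0.33 ± 0.16 in old against young muscle (adjusted p = 0.210), and miR-25-3p, with the seed of miR-92a-3p, at 0.14 ± 0.21. miR-363-3p, which is specific to the X-linked cluster and has the miR-92a seed, was at 0.01 ± 0.34 in old and -0.46 ± 0.36 in disuse muscle against young muscle. miR-92a-2-5p, the 5p partner of miR-92a-3p in the X-linked hairpin, did not have complete values.

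The single marker miR-342-3p of lymphocytes was higher in old against young muscle in edgeR's test (log2 fold change 1.17 ± 0.27, adjusted p = 0.00679). Fold changes of the other leukocyte markers are not given here, so this value does not stand for the list. The summed leukocyte list of 6 miRNAs, most of it miR-150-5p, was at 20429 to 32313 CPM in old, 20000 to 31415 CPM in disuse and 13795 to 29816 CPM in young muscle. Group means of this sum were close, with 25687 ± 5048 for the old libraries and 24499 ± 6510 for the young ones (CPM, SD, n = 5 each). The 3 erythrocyte miRNAs summed to 36.8 to 67.4 CPM in old, 35.3 to 44.4 CPM in disuse and 26.6 to 119 CPM in young muscle, and the 2 endothelial ones to 966 to 1575, 931 to 1529 and 780 to 2347 CPM in the same order. No marker of the leukocyte, erythrocyte or endothelial lists was at 0 over a whole group. The part of other cell types in the miR-92a-1-5p values was not tested, and in whole muscle fewer cells of a type and less RNA per cell cannot be told apart.

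In serum the comparisons of old with young, disuse with young and old with disuse ask the same of circulating miRNAs, and here miR-92a-3p and miR-19b-3p had enough counts to be tested. Between old and young serum 0 of 2 passed, where 9.7% of all tested miRNAs did (7.27% lower; 4 higher and 12 lower, or 2 and 3 with library totals). Between disuse and young serum 0 of 2 passed, against 0% of all, and between old and disuse serum 0 of 2, against 2.42%. Neither had an unadjusted p under 0.05 in any of the 3, and DESeq2 and limma-voom called 0 as well.

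miR-92a-3p was at 21254, 22149, 20417 and 16275 CPM in old serum and 18692, 20046, 22641, 13130 and 21585 CPM in disuse serum, against 16394, 20822, 15052, 26942 and 21931 CPM in young serum. The 3 groups cover the same range. The log2 fold change was -0.01 ± 0.23 for old against young serum (95% interval -0.51 to 0.49) and -0.07 ± 0.21 for disuse against young serum (95% interval -0.55 to 0.40).

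miR-19b-3p was at 203, 185, 73.1 and 220 CPM in old serum and 195, 110, 101, 120 and 234 CPM in disuse serum, against 121, 75.8, 179, 112 and 117 CPM in young serum. These rest on 7 to 44 counts per library. The log2 fold change was 0.44 ± 0.39 for old (adjusted p = 0.493) and 0.35 ± 0.35 for disuse against young serum (adjusted p = 0.778). The other 7 members had 0 to 16 counts per serum library, and 5 of the 9 members were at 0 in at least 1 serum library.

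The ratio of miR-19b-3p to miR-17-5p separated disuse from young serum. On the log2 scale it was 1.95, 1.95, 1.69, 1.43 and 1.73 in disuse serum, against 1.10, 0.36, 1.18, 1.31 and 1.10 in young serum. All disuse values were higher, by 0.74 in the mean (exact two-sided permutation p = 0.00794, adjusted p = 0.0463; with a pseudocount of 1 the difference was 0.71 and the adjusted p 0.0556). In old serum it was 3.62, 1.76, 0.87 and 2.81, which spreads over both other groups (1.25 above young serum, exact permutation p = 0.0794, adjusted p = 0.278). miR-17-5p itself had 3 to 16 counts in disuse serum and 3 to 10 in young serum, too few to be tested on its own. The log2 ratio of the red cell miR-451a to miR-23a-3p is used as a sign of red cell lysis. It was 0.99 ± 0.41 in old serum (SD, n = 4), 1.69 ± 0.41 in disuse serum and 2.31 ± 0.84 in young serum (SD, n = 5 each). Both miRNAs enter these differences. Against young serum the log2 fold change of miR-451a was -0.82 ± 0.24 in old and -0.19 ± 0.22 in disuse serum (SE). That of miR-23a-3p was 0.50 ± 0.25 and 0.46 ± 0.24. The part of red cell lysis in the member ratios was not tested.

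Serum was then set against muscle of the same state. Extraction, RNA input and depth differ between the sources, and cannot be told apart from the source itself. miR-19b-3p was higher in serum in all 3 states. It passed the count filter through the serum libraries, the source where it was higher, so its direction was not free of that filter. In the fits of the 2 sources together it averaged 142.4 ± 52.0 CPM in old serum and 10.0 ± 7.88 CPM in old muscle, 131 ± 50.2 CPM in disuse serum and 10.4 ± 9.42 CPM in disuse muscle, and 102 ± 30.0 CPM in young serum and 27.9 ± 29.2 CPM in young muscle.

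The log2 fold change of miR-19b-3p in serum against muscle was 3.83 ± 0.49 for old (adjusted p = 4.58e-07), 4.20 ± 0.35 for disuse (adjusted p = 7.30e-09) and 1.99 ± 0.59 for young mice (adjusted p = 0.00479), all in edgeR's quasi-likelihood test. Old and disuse serum did not overlap with the muscle of the same state, and young serum did. The summed counts of miR-19b-3p were 78 in old serum and 108 in old muscle, 152 and 67 in disuse mice, and 86 and 78 in young mice. The muscle totals behind them were larger. Over the muscle libraries its counts hardly moved with the total, with a slope of 0.20. The part of depth in these folds was not tested. The median of all tested miRNAs was -0.87, -0.36 and -0.34 in these comparisons, and with library totals in place of TMM factors it was -0.48, 0.13 and 0.17. Over the alternatives in which it was tested, its log2 fold change was 3.504 to 4.56 in old mice, 2.83 to 4.75 in disuse mice and 1.56 to 2.83 in young mice, with an adjusted p of at most 0.0246. The lowest disuse value was with thinned libraries, and in young mice it was 2.82 without young muscle 4; in young and old mice it was not among the tested miRNAs once libraries were thinned.

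miR-92a-3p did not pass in serum against muscle in edgeR's test. In the same fits it averaged 16983 ± 2513 CPM in old serum and 20137 ± 2714 CPM in old muscle (-0.25 ± 0.21, adjusted p = 0.305), and 16498 ± 2966 CPM in disuse serum and 20984 ± 2916 CPM in disuse muscle (-0.35 ± 0.17, adjusted p = 0.0600). The disuse comparison passed with upper-quartile factors (-0.44, adjusted p = 0.0254), in limma-voom (-0.36, adjusted p = 0.0422) and without disuse muscle 2 (-0.43, adjusted p = 0.0340). In young mice it averaged 17044 ± 3885 CPM in serum and 22112 ± 2895 CPM in muscle (-0.38 ± 0.27, adjusted p = 0.201). With library totals the sign turned in all 3, to 0.15, 0.11 and 0.06.

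Read against the background, 1 of 2 tested members was higher in young serum than in young muscle, where 76.3% of all tested miRNAs passed (32.6% higher and 43.7% lower). Of 2 tested in disuse mice 1 was higher, where 86.5% passed (38% higher and 48.4% lower). In old mice, where 7 members were tested, 1 was higher and 1 lower, where 69.3% passed (24.7% higher and 44.6% lower). The lower one, miR-17-3p, entered the test through its muscle counts alone. In each state the higher one, miR-19b-3p, entered through its serum counts. These numbers of higher and lower members are therefore not read as a result beside the shares. With library totals the split over all miRNAs was 76 higher and 68 lower in young mice and 88 higher and 73 lower in disuse mice. Apart from miR-92a-3p in disuse mice, given above, other members passed only when the filter let them be tested. In young mice miR-17-5p was higher in serum with a 10 CPM filter (1.07, adjusted p = 0.0136) and without any one of the 5 young muscle libraries or young serum 4 (0.87 to 1.15, adjusted p at most 0.0491). In disuse mice a 10 CPM filter added miR-92a-1-5p (-1.50, adjusted p = 0.00908), miR-17-3p (-1.77, 0.00574) and miR-19a-3p (4.58, 1.06e-06). That filter takes the mean CPM over both sources, so a member can enter through the source where it is high. As summed counts over summed totals, miR-17-3p was at 7.32 CPM in disuse serum and 18.6 CPM in disuse muscle, and miR-19a-3p at 28.2 and 0.739 CPM. These added calls are not counted among the members that passed.

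The member that fell in old serum against old muscle was miR-17-3p, the other arm of miR-17. It passed the count filter through the old muscle libraries alone, the group where it was higher, so the test is not read as support for a fall. It had 0, 0, 3 and 0 counts in the 4 old serum libraries, against 113, 28, 58, 28 and 64 in old muscle. Over the groups that is 3 counts of 562499 and 291 counts of 15462631, a ratio of 0.283 with an exact 95% counting interval of 0.0581 to 0.836. The test gave -2.13 ± 0.72 (adjusted p = 0.0122), and without old serum 2 it did not pass (-1.54, adjusted p = 0.0715). All 3 serum counts were in old serum 3, and without that library serum stood at 0 throughout and the fitted value was -8.21, which depends on the prior count. In the other states miR-17-3p had 7 counts in disuse serum and 226 in disuse muscle, and 11 counts in young serum and 78 in young muscle, too few for the default filter. It fell in disuse serum against disuse muscle with a 10 CPM filter (-1.77, adjusted p = 0.00574) and with none (-1.87, adjusted p = 0.00104).

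miR-19a-3p, which shares the seed of miR-19b-3p, was too scarce to be tested under edgeR's default filter in all comparisons. With no filter it was higher in old serum than in old muscle (3.25, adjusted p = 0.000594) and in disuse serum than in disuse muscle (4.46, adjusted p = 1.59e-12). Summed over libraries it had 9 counts in old serum and 13 in old muscle, a ratio of 19.03 per library total with an exact 95% counting interval of 7.18 to 48.1. In disuse mice it had 27 counts in serum and 9 in muscle, a ratio of 38.2 (17.4 to 92.3), and in young mice 7 in serum and 9 in muscle, a ratio of 6.14 (1.94 to 18.5). These intervals leave out the spread between libraries. miR-18a-5p had 3, 6 and 8 counts in old, disuse and young serum and 27, 14 and 7 in old, disuse and young muscle. With no filter edgeR's test had miR-18a-5p higher in young serum than in young muscle (2.23, adjusted p = 0.0337), on 8 and 7 counts.

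Within libraries, miR-92a-3p was lower relative to miR-17-5p in serum than in muscle. The log2 ratio averaged 8.76 ± 0.62 in disuse serum and 9.76 ± 0.48 in disuse muscle, a difference of -1.001, and 8.36 ± 0.60 in young serum and 9.90 ± 0.60 in young muscle, a difference of -1.53 (SD, n = 5 each; both with exact permutation p = 0.00794 and adjusted p = 0.0463). The highest disuse serum and the lowest disuse muscle library were both at 9.45. In old mice it was 9.21 ± 0.74 in serum (n = 4) and 9.43 ± 0.24 in muscle (n = 5), a difference of -0.22 (exact permutation p = 0.571). The ratio of miR-19b-3p to miR-17-5p was higher in disuse serum than in disuse muscle by 3.23 (1.75 ± 0.21 and -1.48 ± 1.45; exact permutation p = 0.00794, adjusted p = 0.0463) and in old serum than in old muscle by 4.07 (exact permutation p = 0.0159, adjusted p = 0.0617). For miR-92a-1-5p to miR-92a-3p the difference between disuse serum and disuse muscle was -1.39 (adjusted p = 0.0463), but the highest serum and the lowest muscle library were both at -9.77, miR-92a-1-5p had 0 counts in 2 of the 5 disuse serum libraries, and with a pseudocount of 1 the difference was -0.91 (adjusted p = 0.0926). In all, 9 of the 35 ratio tests had an unadjusted p under 0.05 and 6 passed. These 6 all had the smallest possible exact permutation p, 0.00794, so whether they pass depends on how many tests share it. With a pseudocount of 1, 0 of them passed: the differences of miR-92a-3p to miR-17-5p were then -1.06 in disuse and -1.57 in young mice and that of miR-19b-3p to miR-17-5p 3.15 in disuse mice, each with adjusted p = 0.0556.

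Whether the change with age or disuse differs by source was asked with an interaction term in a fit of the 29 libraries, where 3 members were tested. For the old-young difference 0 of 3 passed, where 0.83% of all tested miRNAs did (0 higher and 2 lower, or 4 and 2 with DESeq2's size factors), and for the disuse-young difference 0 of 3, against 0%; 1 of the 3 had an unadjusted p under 0.05 in each, and DESeq2 and limma-voom called 0. That was miR-19b-3p both times, with a difference between serum and muscle of 1.82 ± 0.82 for age (adjusted p = 0.311) and 2.23 ± 0.82 for disuse (adjusted p = 0.275). miR-17-5p was at -0.97 ± 0.48 and -0.41 ± 0.44, and miR-92a-3p at 0.20 ± 0.29 and 0.14 ± 0.28. Both interactions share the young libraries.

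Related miRNAs in serum against muscle can be set beside the members. Of the tested ones 5 of 7 were higher in old, 4 of 4 in disuse and 3 of 3 in young serum, where 24.7%, 38% and 32.6% of all tested miRNAs were higher. The count filter can let a miRNA in through 1 source alone, so these numbers depend in part on the filter. In disuse mice miR-93-3p, at 75.6 ± 27.5 CPM in serum and 18.7 ± 5.84 CPM in muscle, entered through serum. miR-25-3p, with the miR-92a seed, averaged 4994 ± 1546 CPM in old serum and 514 ± 171 CPM in old muscle (log2 fold change 3.28 ± 0.29, adjusted p = 1.57e-09), with 3.26 ± 0.16 in disuse and 3.40 ± 0.33 in young mice. miR-93-5p, with the miR-17-5p seed, was at 0.62 ± 0.25, 0.98 ± 0.15 and 0.98 ± 0.29 in old, disuse and young serum against muscle, and miR-106b-3p at 1.01, 1.12 and 1.80. miR-93-3p (2.26 in old, 1.94 in disuse) and miR-106b-5p (1.55 in old) were also higher. The 3 erythrocyte miRNAs summed to 4150 to 8347 CPM in old, 8579 to 12804 CPM in disuse and 7661 to 25311 CPM in young serum, far above their muscle sums given earlier. Their part in the serum levels of miR-25-3p, miR-19b-3p and the other members was not tested.

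In serum alone, between old and young, disuse and young and old and disuse, 0 of the 5 tested related miRNAs passed. miR-93-3p was at 1.09 ± 0.40 for old against young serum (adjusted p = 0.107), and miR-106b-3p at -0.86 ± 0.37 (adjusted p = 0.165).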

How the data were processed

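Small RNA libraries (TruSeq) were made, per the labels' protocols, from Trizol-extracted muscle RNA or kit-purified serum RNA. Bowtie and mm10 are named in the submitters' processing notes, with no version; neither the annotation nor the handling of reads fitting more than 1 miRNA is stated in those notes. The authors deposited counts, whole reads per mature miRNA, without normalization. In 488 of 1183 miRNAs, holding 17450 counts (0.0518% of muscle counts), 1 library's value is missing (28 values), and only the 695 complete miRNAs were used. The rows themselves do not show which library's value is missing. Read from the left, the last column, a young muscle library, lacks those cells. The alternative with the incomplete miRNAs instead took the first column as missing, which shifts their values by 1 column. Every column was matched to its sample by title (29 libraries).

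Differences were tested with edgeR 4.0.16 (glmQLFit, glmQLFTest, TMM, filterByExpr) in R 4.3.3 with Benjamini-Hochberg adjustment over all tested miRNAs and a threshold of 0.05. The 15 muscle libraries were fitted together, as were the 14 serum libraries; serum was set against muscle within each state, and interactions used all 29 libraries. The SE is the log2 fold change divided by the square root of F, and 95% intervals use the residual degrees of freedom. Ratios between members used exact two-sided permutation tests (scipy 1.17.1) where each arm had at least 10 counts in both groups. Scripts were tested on simulated data.

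Library totals are in the text; replicate pairs all differed beyond counting noise (chi-square per degree of freedom at least 13.4 over 56 pairs). Alternatives were other scalings, filters, DESeq2 1.42.0, limma-voom 3.58.1, a replicate block, thinning, the incomplete miRNAs and left-out libraries. All members were named; related miRNAs were named where they passed or share a seed, and likeness by the 5 highest r. miR-93-3p and miR-106b-3p in serum alone and miR-92a-2-5p were named outside that rule. The members and lists were chosen with earlier results of these data known.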

Additional observations from a re-analysis of the deposited data

Results flagged for a closer look

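A library was looked at again where it stood far from the others of its group (Dixon's test at 95%); chance does this in about 1 in 20 groups, and 42 groups of values gave 5 such cases. In old muscle 5, miR-92a-1-5p was at 13.9 CPM, while the other old muscle libraries were at 19.9 to 22.01 CPM. In old muscle 2, the log2 ratio of miR-17-3p to miR-17-5p was -1.01, the lowest of its group. The other 3 were in disuse muscle 3, the shallowest muscle library with 254624 counts: miR-19b-3p at 28.1 CPM (7 counts), the log2 ratio of miR-19b-3p to miR-17-5p at 1.10 and the log2 ratio of miR-92a-3p to miR-17-5p at 10.6, the last 2 with 3 counts of miR-17-5p. Without disuse muscle 3, no call changed in disuse against young muscle.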

How the results depend on the processing

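Counts were few: members other than miR-92a-3p had 0 to 44 counts per serum library and 0 to 146 per muscle library. Of 1324 member and ratio values under the alternatives, 1138 kept their direction and their side of the threshold, 74 calls were lost and 5 gained, and 107 turned direction, 0 of these with an adjusted p under 0.05. The cause of the changes was not tested.

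Between old and young muscle the count of members past the threshold was 1, and 0 with upper-quartile factors, without a filter, in limma-voom, with thinned libraries, with only the 2 groups fitted and with the replicate block, and 0 to 1 with a library left out. Between disuse and young muscle it was 0, and 1 with the incomplete miRNAs added. In young serum against young muscle it was 1, and 2 without a filter, 2 with a 10 CPM filter, 2 with disuse muscle 3 and young muscle 1 left out (chosen after seeing the data), 0 with thinned libraries and 1 to 2 with a library left out. In old mice it was 2, and 3 without a filter, 0 with thinned libraries and 1 to 2 with a library left out. In disuse mice it was 1, and 2 with upper-quartile factors, 4 without a filter, 4 with a 10 CPM filter, 2 in limma-voom and 1 to 2 with a library left out. For the disuse-young interaction it was 0, and 1 without a filter. Of the ratio tests 6 passed, and 0 with a pseudocount of 1 and 0 to 6 with a library left out. Whether the smallest possible p passes depends on how many tests share it.

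Same-numbered libraries had correlations of -0.318 to 0.447 in their deviations, and in no comparison were all pairs over 0.1, so the numbers were not taken to pair the samples; whether they mark shared animals is not stated. With the number as a replicate block miR-92a-1-5p in old against young muscle was 0.85 with adjusted p = 0.107, and miR-92a-3p turned to 0.00508 in disuse against young muscle and to 0.0173 in old against young serum. The block changed no other call of a member.

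Over all miRNAs, calls between old and young muscle were 20, against 36 with upper-quartile factors and 3 with thinned libraries, and between disuse and young muscle 1, against 0 to 2. Old and disuse muscle gave 12, against 1 thinned. Old and young serum gave 16, against 5 with library totals, 8 thinned and 6 with only both groups fitted, disuse and young serum 0, against 5 without a filter, and old and disuse serum 4, against 0 with library totals, a 10 CPM filter, the replicate block or thinning. Serum against muscle gave 145 in young mice (270 without a filter, 72 thinned), 219 in old mice (41 thinned) and 166 in disuse mice (327 without a filter). The old-young interaction gave 2, against 0 to 11, and the disuse-young one 0, against 5 without a filter.

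The following log2 fold changes near 0 turned sign. In old against disuse muscle miR-92a-3p (-0.08) was 0.0159 with library totals, 0.0304 without a filter, 0.00209 with a 10 CPM filter, 0.0155 with incomplete miRNAs and 0.00276 without the shallowest muscle libraries. There miR-18a-3p (-0.09) was 0.0199 with library totals, 0.00736 without a filter and 0.00639 with incomplete miRNAs. In the same comparison miR-17-3p (-0.04) was 0.0437 with library totals, 0.0222 with DESeq2's factors, 0.0488 without a filter, 0.0411 with a 10 CPM filter, 0.0210 in DESeq2 and 0.0415 with incomplete miRNAs. In disuse against young muscle miR-92a-3p (-0.00) was 0.0177 in limma-voom and miR-20a-5p (-0.28) was 0.0584 without the shallowest muscle libraries.

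In old against young serum miR-92a-3p (-0.01) was 0.0156 with library totals, 0.0474 with DESeq2's factors, 0.0607 without a filter, 0.0150 with a 10 CPM filter, 0.0480 in DESeq2 and 0.00991 with only both groups fitted. In disuse against young serum it (-0.07) was 0.0987 without a filter and 0.0416 with only both groups fitted, and in old against disuse serum (0.06) -0.0108 with upper-quartile factors and -0.0380 without a filter. There miR-19b-3p (0.09) was -0.0255 without a filter and -0.0125 in limma-voom.

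In serum against muscle miR-92a-3p with library totals was 0.15 in old, 0.11 in disuse and 0.0568 in young mice, and with thinned libraries 0.0115 in disuse and 0.29 in young mice. In old mice miR-20a-5p (-0.03) was 0.28 with library totals, 0.17 with upper-quartile factors, 0.200 with a 10 CPM filter and 0.25 in limma-voom, and miR-17-5p (0.10) was -0.00823 with DESeq2's factors, -0.20 without a filter and -0.0132 in limma-voom. The disuse-young interaction of miR-92a-3p (0.14) was -0.0942 with a 10 CPM filter. With a pseudocount of 1 the log2 ratio of miR-92a-1-5p to miR-92a-3p (-0.20) differed by 0.19 between old serum and old muscle, and that of miR-20a-5p to miR-17-5p (-0.05) by 0.11 between disuse serum and disuse muscle.

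With a library left out, miR-92a-3p was -0.18 to 0.0503 in old and -0.11 to 0.10 in disuse against young muscle, -0.15 to 0.0600 in old against disuse muscle, -0.10 to 0.14 in old and -0.15 to 0.0621 in disuse against young serum, and -0.0692 to 0.13 in old against disuse serum. Its old-young interaction was -0.13 to 0.40 and its disuse-young interaction -0.15 to 0.29. miR-20a-5p was -0.45 to 0.0619 in disuse against young muscle and -0.40 to 0.21 in old serum against old muscle, where miR-17-5p was -0.27 to 0.39. miR-19b-3p was -0.15 to 0.70 in old against disuse muscle, where miR-18a-3p was -0.14 to 0.0405 and miR-17-3p -0.0957 to 0.13, and -0.0638 to 0.39 in old against disuse serum.

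The log2 ratios with a library left out differed as follows. In disuse against young muscle miR-17-3p to miR-17-5p was -0.0663 to 0.235 and miR-92a-3p to miR-17-5p -0.35 to 0.0184. In old against young muscle miR-20a-5p to miR-17-5p was -0.21 to 0.41. In old against disuse muscle miR-18a-3p to miR-18a-5p was -0.79 to 0.12, miR-92a-1-5p to miR-92a-3p -0.22 to 0.0627 and miR-19b-3p to miR-17-5p -0.68 to 0.32. In disuse serum against disuse muscle miR-20a-5p to miR-17-5p was -0.235 to 0.30.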
